A study of Mus musculus with 12 samples.

Results

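Microtubules are polymers of alpha- and beta-tubulin, and 8 mouse genes for these subunits were followed on expression arrays of mouse embryonic fibroblasts: the beta-tubulins Tubb3, Tubb2a, Tubb2b, Tubb5 and Tubb6 and the alpha-tubulins Tuba1a, Tuba1b and Tuba1c. Every probe set annotated to one of them was taken, which gave 14 of the 45037 non-control probe sets, and 13 of the 14 passed the filter on low signal. Tubb3 has 1 probe set among them. The gene Tubb3 was chosen by its measured signal, since interferon-gamma raised it strongly with and without AMN107. Its interferon-gamma responses are therefore described here and not tested.

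The 12 arrays fall into 6 groups of 2. The drug AMN107, also named nilotinib, blocks the ABL tyrosine kinases, and the series compares interferon responses with and without it. The groups are AMN107-IFNg (AMN107, then interferon-gamma), AMN107-IFNa (AMN107, then interferon-alpha), AMN107 alone, IFNg alone, IFNa alone, and DMSO as the vehicle control. Interferon was given for 6 h. All groups share the cell type and the medium with fetal bovine serum, and the labels name neither a dose or duration of AMN107 nor the strain or passage of the cells. Both arrays of a group carry the name biological replicate in the labels, which mention no separate cultures or embryos, so p-values measure only the spread between these arrays.

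Alpha- and beta-tubulin form dimers that assemble into the microtubules used for transport, cell shape and mitosis. The beta-tubulin isotypes differ mostly in their C-terminal tails, and Tubb3 is best known as a marker of neurons. Cells also adjust tubulin mRNA to the pool of free dimers, because unpolymerised tubulin triggers the decay of tubulin mRNAs on ribosomes.

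The promoter of Tubb3 is shown beside those of Tubb5 and Tuba1a, because these 3 genes had different patterns across the treatments. Each window runs from 250 bases before to 50 bases after the gene's start in RefSeq (build GRCm38.p6) and is written on the gene's strand. It lies at chr8:123411303-123411602 on the plus strand for Tubb3, at chr17:35838252-35838551 on the minus strand for Tubb5 and at chr15:98953452-98953751 on the minus strand for Tuba1a. Capitals mark 3 motifs on either strand. They are the GC box, searched as GGGCGG, the TATA box, searched simply as the letters TATAA, and the CCAAT box.
Tubb3: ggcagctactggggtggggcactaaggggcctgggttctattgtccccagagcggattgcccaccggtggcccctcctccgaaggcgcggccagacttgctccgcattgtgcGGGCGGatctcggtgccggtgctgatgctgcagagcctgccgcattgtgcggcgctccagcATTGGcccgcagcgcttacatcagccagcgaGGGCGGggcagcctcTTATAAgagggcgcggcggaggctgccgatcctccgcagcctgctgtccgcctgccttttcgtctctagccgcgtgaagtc
Tubb5: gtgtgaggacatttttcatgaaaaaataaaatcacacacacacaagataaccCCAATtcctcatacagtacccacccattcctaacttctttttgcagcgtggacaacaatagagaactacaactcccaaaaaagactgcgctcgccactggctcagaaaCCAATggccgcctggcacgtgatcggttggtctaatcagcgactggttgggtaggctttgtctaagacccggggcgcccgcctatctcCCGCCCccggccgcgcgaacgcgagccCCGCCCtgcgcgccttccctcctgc
Tuba1a: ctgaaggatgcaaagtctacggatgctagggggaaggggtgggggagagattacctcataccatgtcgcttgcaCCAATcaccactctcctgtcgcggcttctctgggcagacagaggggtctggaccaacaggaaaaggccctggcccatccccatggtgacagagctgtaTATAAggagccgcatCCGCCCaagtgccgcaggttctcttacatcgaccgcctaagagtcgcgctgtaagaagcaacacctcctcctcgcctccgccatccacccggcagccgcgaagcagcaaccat
In Tubb3 the capitals just before the last stretch of lower case hold the TATA letters on both strands, overlapping.

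Windows were at hand for 6 of the 8 genes. The core of the interferon-stimulated response element, GAAANNGAAA, was in 0 of the 6 windows and in 3.44% of 32851 windows of the same length. GC boxes were in 5 of 6 (35.7% of all windows), the TATA letters in 3 of 6 (24.9%) and the CCAAT box in 4 of 6 (37.4%). Both strands were searched. Tubb3 held all 3 of these, Tubb5 held GC boxes and CCAAT boxes, and Tuba1a held 1 of each of the 3. A match is a run of letters and not a site shown to be bound, and the absence of one says only that these letters are not in this window.

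The label of the cells was set against marker genes. Of 16 fibroblast markers 12 were tested and 11 lay above the array median on all 12 arrays, while Thy1, Lum, Fap and Postn never did. Of 12 macrophage and leukocyte markers 5 were tested, and the leukocyte marker Ptprc and the macrophage markers Adgre1 and Itgam were not among them. Of the 12, 3 lay above the array median on all 12 arrays. With AMN107 against DMSO 2 of the 5 were lower and 0 higher, Csf1r (-0.27, limma, adjusted p = 0.0419) and Laptm5 (-0.31, adjusted p = 0.0370), and both calls ended without any 1 DMSO or AMN107 array (adjusted p up to 0.213 and 0.138). Their part in the tubulin differences was not tested. IFNg raised 9 of 9 tested interferon-response genes over DMSO, such as Irf1 and Gbp2. AMN107 alone raised 5 of the 9. Over all probe sets, 6.65% were called higher with IFNg against DMSO. With AMN107 against DMSO 20.7% were called higher and 12.4% lower. The second IFNa array stood apart: its 5'/3' signal ratio of the GAPDH control was 0.0252, against 1.07 to 1.16 on the other 11 arrays. The SD over all tested probe sets of the log2 difference between the replicates was 0.435 for IFNa and 0.131 to 0.157 for the other groups.

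Tubb3 responded strongly to interferon-gamma and more weakly to AMN107, and its highest signal came with both. Its signal, a linear array intensity, was 692.2 and 572.5 on the AMN107-IFNg arrays, 73.8 and 70.6 on the AMN107-IFNa arrays, and 78.5 and 86.7 on the AMN107 arrays. It was 356.2 and 338.9 on the IFNg arrays, 33.1 and 32.2 on the IFNa arrays, and 25.1 and 32.5 on the DMSO arrays. The 4 arrays with IFNg lay above the other 8, the 4 arrays with AMN107 and no IFNg came next, and the IFNa and DMSO arrays overlapped at the bottom. The array median was 20.6 to 22.7, so Tubb3 was only just above the middle of the array in DMSO cells.

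**Figure D1:**
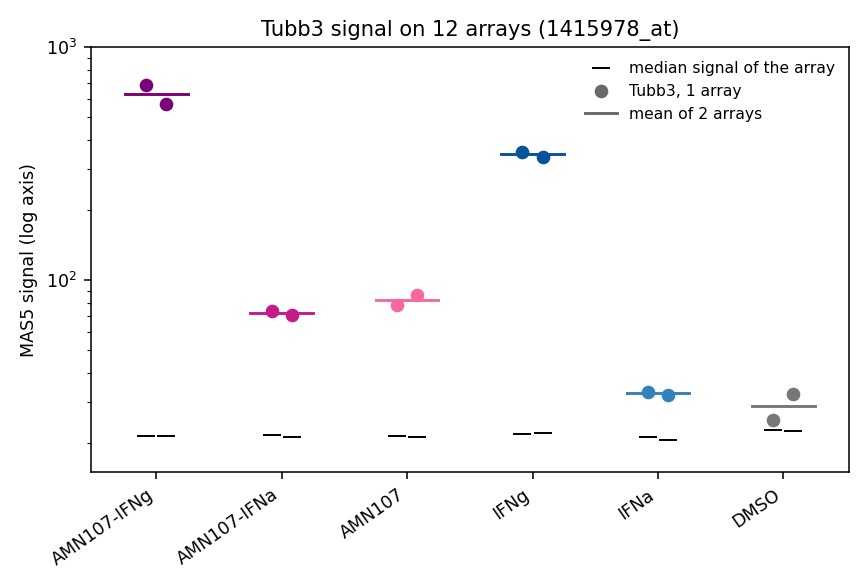
Tubb3 signal on each of the 12 arrays (log axis; points are arrays, coloured lines the means of 2, short black lines the median signal of each array), by treatment group. The IFNg groups lie highest, with 692.2 and 572.5 under AMN107-IFNg and 356.2 and 338.9 under IFNg, and the DMSO arrays lie at 25.1 and 32.5, near the array medians.

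Differences below are on the scale log2(signal + 8.66), which understates changes of dim probe sets. IFNg minus DMSO was 3.26 ± 0.12 (SE, 2 arrays a group) for Tubb3, a 9.56-fold ratio of signal plus 8.66, and ranked 27 of 24363 tested probe sets. AMN107-IFNg minus AMN107 was 2.81 ± 0.12, a 7.0-fold ratio, and ranked 17. These ranks describe the values that chose the gene. The IFNg response under AMN107 minus that without it was -0.45 ± 0.17, and this ran from -0.67 with no added signal to -0.23 with a larger one.

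IFNa left Tubb3 without a call in either state. Tubb3 averaged 32.7 ± 0.602 in IFNa cells and 28.8 ± 5.23 in DMSO cells (SD, n = 2 each), a log2 difference of 0.15 ± 0.12 (limma, adjusted p = 0.373). With AMN107 it averaged 72.2 ± 2.22 in AMN107-IFNa cells and 82.6 ± 5.78 in AMN107 cells, and the ranges did not overlap, but the difference of -0.17 ± 0.12 was not called (limma, adjusted p = 0.99995). Across all probe sets, 12% were called for IFNa against DMSO and 0.119% for AMN107-IFNa against AMN107. The DMSO and AMN107 arrays used as references here also gave the IFNg responses that chose Tubb3. Neither p-value of Tubb3 is therefore fully independent of that choice.

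AMN107 raised Tubb3 in all 3 states. The difference AMN107 minus DMSO was 1.29 ± 0.12, a 2.45-fold ratio (limma, adjusted p = 7.97e-05), with both AMN107 arrays above both DMSO arrays. With IFNa it was 0.97 ± 0.12 for AMN107-IFNa minus IFNa (limma, adjusted p = 0.000656). With IFNg it was 0.84 ± 0.12 for AMN107-IFNg minus IFNg (limma, adjusted p = 0.00175). The share of all tested probe sets called in either direction in these comparisons was 33.1%, 24.1% and 15.4%, in that order, so a call by itself is common here. The size was less so: Tubb3 ranked 376, 444 and 405 of 24363 from the top. The call with IFNa ended when the model was fitted to those 2 groups alone (adjusted p = 0.0642), and the other 2 calls held under all 22 alternatives. All arrays of AMN107 minus DMSO and of AMN107-IFNg minus IFNg also gave the IFNg responses that chose Tubb3. Their p-values are therefore not independent of that choice, and these 2 comparisons are best read as a description. AMN107-IFNa minus IFNa compares other arrays.

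Neuron markers were read beside Tubb3. Of 20 such genes with a probe set 10 never lay above the array median, among them Dcx, Nefl, Snap25 and Gap43. Of the 20, 8 lay above it on all 12 arrays. With IFNg against DMSO 1 of the 10 tested was higher, the intermediate filament gene Prph (0.50, limma, adjusted p = 0.0200), and 0 were lower, where 6.65% of all probe sets were called higher and 2.33% lower. With AMN107 against DMSO 3 were higher, the adhesion molecule Ncam1 (0.94), the microtubule-associated protein Map2 (0.72) and Prph (0.71), and the synaptic vesicle protein Syp was lower (-0.44), where 20.7% of all probe sets were called higher and 12.4% lower. The Prph call with IFNg ended without either DMSO array or without the first IFNg array (adjusted p = 0.0940 to 0.158). Those of Map2 and Syp with AMN107 ended without the first DMSO array (adjusted p = 0.0928 and 0.0656) or without 1 of the AMN107 arrays (0.0714 and 0.0535). The summed signal of the 20 markers was 527 to 541 with AMN107-IFNg, 531 to 547 with AMN107-IFNa, 504 to 518 with AMN107, 416 to 433 with IFNg, 441 to 454 with IFNa and 442 to 460 with DMSO. It was thus higher on the AMN107 arrays than on the others. It was not higher with IFNg than with DMSO, but it was higher with AMN107-IFNg than with AMN107. Its part in the Tubb3 values was not tested. In bulk RNA, fewer cells of a type and less RNA per cell cannot be told apart.

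Fibroblast markers also differed with AMN107. Of 12 tested, 3 were higher and 4 lower in AMN107 than in DMSO cells, where 20.7% of all probe sets were called higher and 12.4% lower. Among those lower were the collagen gene Col3a1 at -2.31 and S100a4 at -1.22. Among those higher was Prrx1 at 0.34, a call that ended with quantile normalization (limma, adjusted p = 0.179). The median of the 12 was -0.22, against 0.03 over all tested probe sets. With IFNg against DMSO 2 of the 12 were higher and 2 lower, where 6.65% of all probe sets were called higher and 2.33% lower. The summed signal of the 16 listed markers was 7965 to 7974 with AMN107, 11161 to 11716 with IFNg and 10148 to 10264 with DMSO. Its part in the tubulin differences was not tested.

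The genes next to Tubb3 were not called with IFNg. In RefSeq order (GRCm38.p6) Spire2, Tcf25 and Mc1r lie on one side and Def8, the lncRNA Gm39275 and Afg3l1 on the other. For the 5 of them with a tested probe set, IFNg minus DMSO ran from -0.19 to 0.43 and no probe set was called (limma, lowest adjusted p = 0.169).

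Among 12186 genes, the 8 whose log2 values over the 12 arrays were most like those of Tubb3 were Mt2 (Pearson r 0.978), Cxcl11 (0.974), Usp12 (0.973), Ifnar2 (0.965), Il15ra (0.964), Nlrc5 (0.963), Katna1 (0.960) and Cd274 (0.959). These 12 points are 6 treatments of 2 arrays each, so the r values reflect mostly the treatments. Mt2 is a metallothionein, Cxcl11 a chemokine, Nlrc5 the transactivator of MHC class I genes and Cd274 the checkpoint ligand PD-L1. Katna1, the catalytic subunit of the microtubule-severing enzyme katanin, is the one gene of the 8 that was also in the microtubule lists. Its signal was 756.7 and 723.8 with AMN107-IFNg, 291.5 and 283.0 with AMN107-IFNa, 281.8 and 275.0 with AMN107, 491.4 and 486.0 with IFNg, 184.1 and 267.1 with IFNa, and 130.0 and 153.4 with DMSO. Its IFNg minus DMSO difference was 1.73, AMN107-IFNg minus AMN107 was 1.38 and AMN107 minus DMSO was 0.94. Unlike the Tubb3 value, its IFNa minus DMSO difference was called, at 0.62 (limma, adjusted p = 0.0368), though not with array weights (0.179), with only those 2 groups (0.350), with quantile normalization (0.0696) or without any 1 array of the groups other than IFNa (0.0587 to 0.208). It was 0.88 without the first IFNa array and 0.36 without the second. AMN107-IFNa minus AMN107 was 0.04. Cd274 differed from Tubb3 in AMN107 minus DMSO, which was 0.05 for Cd274.

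**Figure D2:**
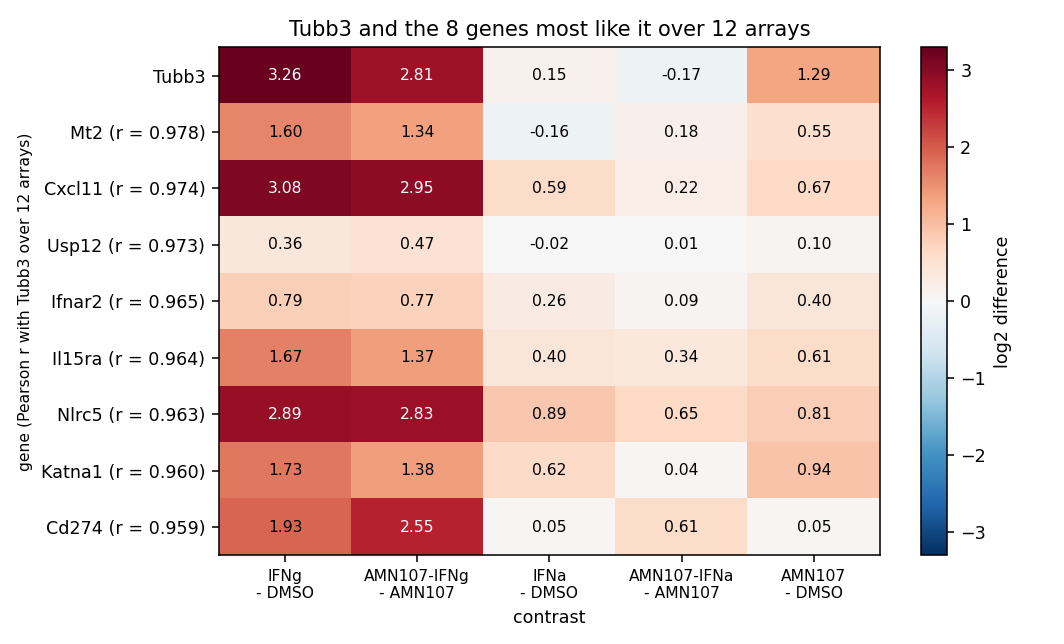
Log2 differences of 5 comparisons (columns) for Tubb3 and the 8 genes most like it over the 12 arrays, with Pearson r beside each name. IFNg minus DMSO was 3.26 for Tubb3, 3.08 for Cxcl11 and 1.73 for Katna1, and the IFNa columns are near 0 for Tubb3 at 0.15 and -0.17.

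The other 7 tubulin genes had 12 tested probe sets, and their calls with interferon are given beside the share over all probe sets. For IFNg against DMSO 2 of 12 were called higher and 0 lower, where 8.98% of all tested probe sets were called, 6.65% higher and 2.33% lower. One of the 2 is 1449682_s_at, which passed the filter only through arrays where it was high. The median of the 12 was 0.10, against -0.02 over all tested probe sets. For AMN107-IFNg against AMN107 0 of 12 were called by limma (1 at an unadjusted p under 0.05), where 1.78% of all were called, and the median was 0.00 against -0.03. For IFNa against DMSO 0 were called (1 at an unadjusted p under 0.05), where 12% of all were called. For AMN107-IFNa against AMN107 0 were called (0 at an unadjusted p under 0.05), where 0.119% of all were called. The median for IFNa minus DMSO was 0.12, against 0.05 over all, and the 12 ran from -0.40 to 0.25, where Tubb3 had 0.15.

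AMN107 moved these genes in both directions. Against DMSO it raised 4 of the 12 probe sets and lowered 1, where 20.7% of all probe sets were called higher and 12.4% lower. In IFNa cells it raised 1 and lowered 2 (11.2% and 12.9% of all). In IFNg cells it raised 0 and lowered 3 (10.9% and 4.41% of all). Among those raised, 1 against DMSO and the 1 in IFNa cells are 1449682_s_at. It passed the filter only through arrays where it was high, so its calls are a description. The 3 comparisons use different arrays, but the same AMN107-IFNg, AMN107-IFNa and AMN107 arrays enter the interferon comparisons above.

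Tubb2a, a beta-tubulin abundant in neurons, was lower with AMN107. On 1427347_s_at, a probe set whose suffix marks possible hybridization with related genes, the signal was 428.1 and 432.4 with AMN107-IFNg, 363.7 and 463.4 with AMN107-IFNa, and 394.5 and 455.7 with AMN107. It was 598.7 and 591.6 with IFNg, 657.5 and 645.5 with IFNa, and 605.2 and 501.4 with DMSO. All 6 AMN107 arrays lay below all 6 arrays without it. The difference was -0.66 ± 0.13 in IFNa cells (limma, adjusted p = 0.00585) and -0.46 ± 0.13 in IFNg cells (adjusted p = 0.0392), while AMN107 minus DMSO, -0.37 ± 0.13, was not called (adjusted p = 0.0509). The IFNa call ended without the first AMN107-IFNa array (adjusted p = 0.0612), with only those 2 groups fitted (0.148) and with array weights (0.120). The IFNg call ended without either array of IFNg, AMN107 or AMN107-IFNg (adjusted p = 0.0551 to 0.190), without the filter (0.0514) and with median centring (0.0546). The other Tubb2a probe set, 1427838_at, was dim at 25.7 to 41.7 and was not called in any comparison.

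Tubb2b, which is known from the developing brain, was dim. Its own probe set 1452679_at had 42.3 and 45.0 with AMN107-IFNg, 38.7 and 38.6 with AMN107, 46.5 and 39.2 with IFNg, and 40.7 and 38.8 with DMSO, and it was called in no comparison. The probe set shared by Tubb2b and the pseudogene Tubb2a-ps2, 1449682_s_at, was above the array median on 8 of 12 arrays and had 37.7 and 32.3 with AMN107-IFNg, 34.7 and 36.2 with AMN107-IFNa, 31.3 and 39.6 with AMN107, 24.5 and 26.2 with IFNg, 17.1 and 7.3 with IFNa, and 6.5 and 12.3 with DMSO. All of its DMSO and IFNa arrays lay below the array median, so it passed the filter only through the AMN107 and IFNg arrays where it was high, and its differences are a description. They were 1.30 for AMN107 minus DMSO, 1.12 for AMN107-IFNa minus IFNa and 0.94 for IFNg minus DMSO. Tubb2b and the pseudogene cannot be told apart on it, and the probe set of Tubb2b alone was not called.

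Tubb5, the widely expressed beta-tubulin of dividing cells, was higher with AMN107 than with DMSO on both of its probe sets. On 1455719_at the signal was 788.0 and 797.6 with AMN107-IFNg, 794.0 and 773.7 with AMN107-IFNa, and 794.6 and 801.2 with AMN107, against 635.2 and 660.3 with IFNg, 625.7 and 742.7 with IFNa, and 605.2 and 594.4 with DMSO. The 6 AMN107 arrays lay above the other 6. AMN107 minus DMSO was 0.41 ± 0.09 (limma, adjusted p = 0.00777), and the call ended without the second AMN107 array (adjusted p = 0.0567). The difference with IFNg was 0.29 (adjusted p = 0.0562).

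The brighter Tubb5 probe set, 1416256_a_at, rose with IFNg as well. It read 3962 and 3822 with AMN107-IFNg, 3938 and 3898 with AMN107, 4162 and 4068 with IFNg, and 3296 and 3339 with DMSO. The IFNg and AMN107 arrays lay above the DMSO arrays, and the AMN107-IFNg and AMN107 arrays overlapped. IFNg minus DMSO was 0.31 ± 0.08 (limma, adjusted p = 0.0354) and AMN107 minus DMSO was 0.24 ± 0.08 (adjusted p = 0.0394). With IFNg present it was no higher under AMN107: AMN107-IFNg minus IFNg was -0.08, with both AMN107-IFNg arrays below both IFNg arrays and no call. The AMN107-IFNa and IFNa arrays overlapped, also without a call (adjusted p = 0.256). The calls against DMSO ended without the filter on low signal (adjusted p = 0.0616 and 0.0617) and without either DMSO array. The IFNg call also ended without any 1 array of the IFNg, AMN107 or AMN107-IFNg groups (adjusted p = 0.0626 to 0.189), and the AMN107 call ended without any 1 of those arrays (adjusted p = 0.0582 to 0.143).

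Tubb6, a beta-tubulin of non-neuronal tissues, was higher with AMN107 than with DMSO on its brighter probe set, 1416431_at. It had 1631 and 1668 with AMN107-IFNg, 1712 and 1780 with AMN107-IFNa, and 1679 and 1765 with AMN107, against 1427 and 1558 with IFNg, 1100 and 1617 with IFNa, and 1156 and 1092 with DMSO. The IFNa arrays were the farthest apart. AMN107 minus DMSO was 0.61 ± 0.14 (limma, adjusted p = 0.00970), and the call ended without the second DMSO array (adjusted p = 0.0598) or the second AMN107 array (adjusted p = 0.0684). AMN107-IFNa minus IFNa was 0.39 (limma, adjusted p = 0.0739) and AMN107-IFNg minus IFNg was 0.14 (adjusted p = 0.539), and neither was called. IFNg minus DMSO was 0.41 ± 0.14 (adjusted p = 0.105) and was called once both IFNa arrays were left out of the model (adjusted p = 0.000101). The dim probe set 1446353_at was called in no comparison.

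Of the alpha-tubulins, Tuba1a was lower with AMN107 in all 3 states. Tuba1a is the main alpha-tubulin of developing neurons. On 1418884_x_at it read 2928 and 3205 with AMN107-IFNg, 2383 and 2547 with AMN107-IFNa, and 2731 and 2488 with AMN107, against 4697 and 4184 with IFNg, 4132 and 4020 with IFNa, and 4566 and 4302 with DMSO. No AMN107 array reached any array without it. The difference was -0.76 ± 0.08 for AMN107 minus DMSO (limma, adjusted p = 0.000130), -0.72 ± 0.08 with IFNa (adjusted p = 0.000281) and -0.53 ± 0.08 with IFNg (adjusted p = 0.00182). The first and the last held under all 22 alternatives, and that with IFNa ended in a fit of those 2 groups alone (adjusted p = 0.0655). IFNg minus DMSO was not called for it. The suffix marks possible hybridization with related genes, so how much of this signal is Tuba1a's is uncertain. A second probe set, shared by Tuba1a and the pseudogene Gm6682, never lay above the array median and was not tested.

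**Figure D3:**
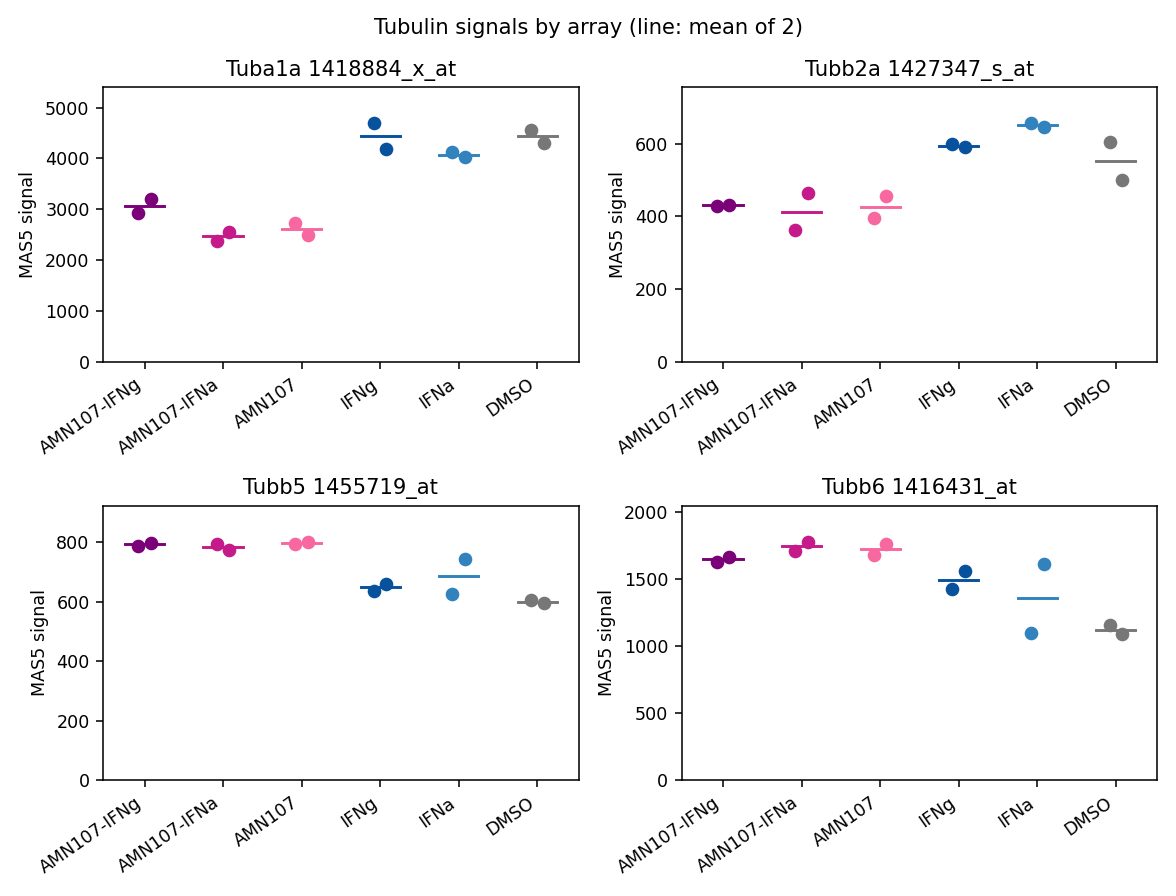
Signals of Tuba1a, Tubb2a, Tubb5 and Tubb6 on each array (1 probe set each; points are arrays, lines the means of 2; linear axes from 0), by treatment group. Tuba1a lies at 2383 to 3205 on the AMN107 arrays and at 4020 to 4697 on the others, while Tubb5 lies higher with AMN107, at 773.7 to 801.2 against 594.4 to 742.7.

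The 2 probe sets shared by Tuba1c and the pseudogene Gm6682 also had lower group means with AMN107. The brighter, 1448232_x_at, was called in no comparison, and its AMN107 minus DMSO difference was -0.23 (limma, adjusted p = 0.261). Its AMN107-IFNg and IFNg arrays overlapped. On 1416128_at the signal was 146.2 and 179.3 with AMN107-IFNg, 156.4 and 158.9 with AMN107, 224.1 and 233.9 with IFNg, and 208.7 and 190.7 with DMSO. The IFNg comparison was called (-0.48 ± 0.12, limma, adjusted p = 0.0290), a call that ended without either array of IFNg or of AMN107 or without the first AMN107-IFNg array (adjusted p = 0.0532 to 0.246). AMN107 minus DMSO was -0.32 (adjusted p = 0.0707). The probe set shared by Tuba1b and the pseudogene Gm5620 gave 8593 to 8944 on all 12 arrays, where the highest signal of any probe set on an array was 10541 to 11755. It was called in no comparison, and a response near the top of the scale could be compressed.

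**Figure D4:**
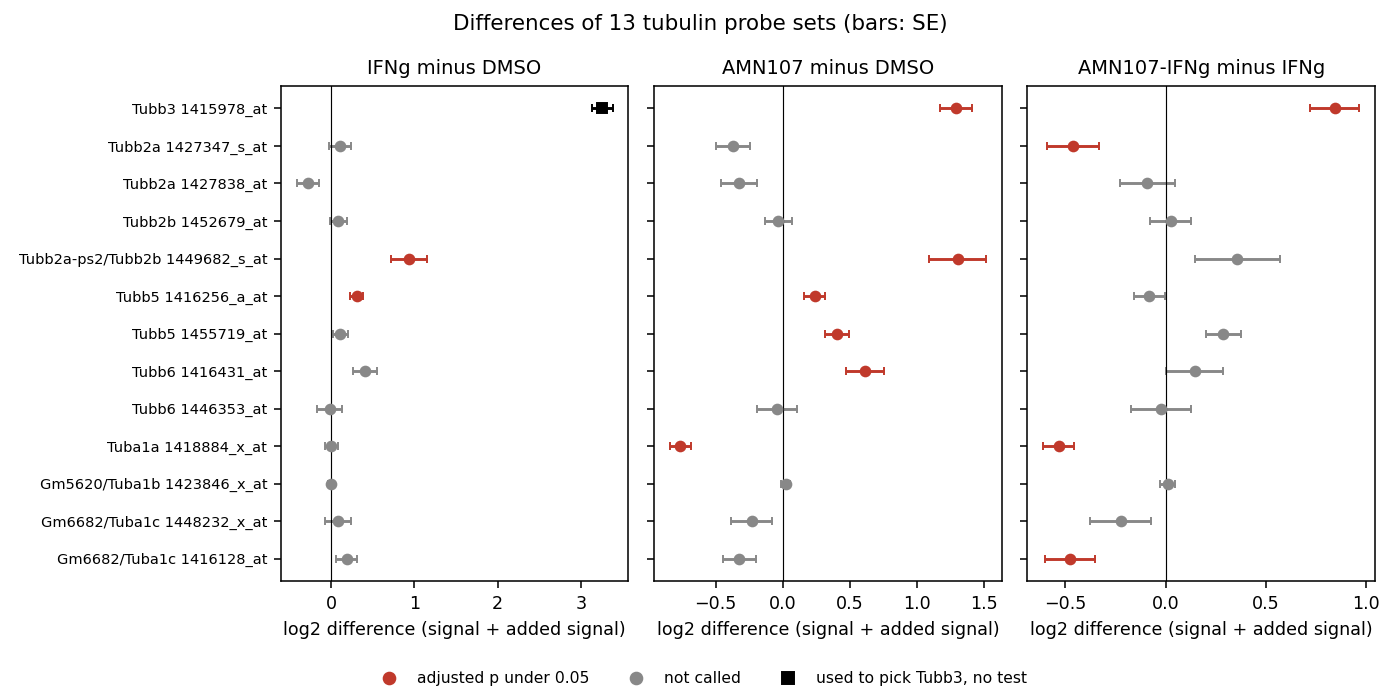
Log2 differences (points) with their SE (bars) for the 13 tested tubulin probe sets in IFNg minus DMSO, AMN107 minus DMSO and AMN107-IFNg minus IFNg; red marks an adjusted p under 0.05 (1449682_s_at included, which passed the filter only through arrays where it was high), black the value used to pick Tubb3. Tubb3 stands at 3.26, 1.29 and 0.84, and Tuba1a is at -0.76 and -0.53 in the AMN107 panels.

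Whether AMN107 changed the response to interferon was tested for the other tubulins as a difference of differences. None of the 12 probe sets was called by limma for IFNg (0 of 12; 3 at an unadjusted p under 0.05) or for IFNa (0 of 12; 1 at an unadjusted p under 0.05), where 1.38% and 0.152% of all probe sets were. In the model over all 12 arrays the IFNg term of Tubb5 1416256_a_at was -0.32 and that of Tubb6 1416431_at was -0.47. Both were called without the IFNa arrays (adjusted p = 0.00449 and 0.00132), with array weights (adjusted p = 0.00751 and 0.00493) and with only the groups of the comparison. In those fits the IFNg response was thus lower with AMN107 than without it. The probe set 1449682_s_at had -0.95, which is given as a description for the reason stated above.

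The tubulin genes beyond the 8 that have a probe set of their own, read on the brightest of each, gave 5 tested genes. Tubb4b, a widely expressed beta-tubulin, had 1633 and 1648 with AMN107-IFNg, 1784 and 1790 with AMN107, 2191 and 2105 with IFNg, and 1494 and 1553 with DMSO. Both IFNg arrays stood above the other 6 of these. IFNg minus DMSO was 0.49 ± 0.06 (limma, adjusted p = 0.00122), and the response was lower with AMN107 by a difference of -0.62 ± 0.09 (adjusted p = 0.0127). AMN107 minus DMSO was 0.23 on this probe set of Tubb4b (limma, adjusted p = 0.0226). That call ended with quantile normalization (adjusted p = 0.157) and without any 1 DMSO or AMN107 array. Tuba4a was lower with IFNg (-0.42, adjusted p = 0.0331) and with AMN107 (-0.67, adjusted p = 0.00144) than with DMSO. The Tubb4b interaction ended without the first DMSO array or without any 1 IFNg, AMN107 or AMN107-IFNg array (adjusted p = 0.0502 to 0.0890), and the Tuba4a call with IFNg ended without any 1 array other than the 2 of IFNa alone (adjusted p = 0.0571 to 0.235) and without the filter (0.0557). Other probe sets of these 2 genes, looked up after the values were seen, differed. Tubb4b had -0.10 and -0.41 for IFNg minus DMSO on 2 dimmer probe sets, neither of them called, and fell on both with AMN107 (-0.52 and -0.57, limma, adjusted p = 0.00427 and 0.0267). Tuba4a had 0.18 and -0.37 with IFNg and -0.17 and -0.31 with AMN107, and none of the 4 was called. Tubb4a, which was dim, was lower than in DMSO cells with AMN107 (-0.46, limma, adjusted p = 0.00404) and with IFNa (-0.47, adjusted p = 0.0221). The Tubb4a call with IFNa ended with only those 2 groups fitted and with array weights, where 0 of all probe sets were called lower. In IFNg cells Tubb4a was lower with AMN107 (-0.34, limma, adjusted p = 0.0290), and its IFNg minus DMSO difference of -0.15 was not called.

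Tuba3b and Tuba3a, alpha-tubulins best known from the testis, share 2 tested probe sets and cannot be told apart on them. They were added after the values were seen. On the one with the s_at suffix the signal was 258.4 and 282.2 with AMN107-IFNg, 252.5 and 304.3 with AMN107-IFNa, and 240.9 and 264.3 with AMN107, against 286.6 and 312.7 with IFNg, 196.9 and 164.6 with IFNa, and 154.5 and 141.8 with DMSO. The IFNg arrays and all 6 AMN107 arrays lay above the IFNa and DMSO arrays. The difference IFNg minus DMSO was 0.98 ± 0.13 (limma, adjusted p = 0.00107) and AMN107 minus DMSO was 0.74 (adjusted p = 0.00218), and both held under all 22 alternatives. AMN107-IFNg minus AMN107 was 0.09, so the IFNg response was lower with AMN107 by -0.88 ± 0.18 (adjusted p = 0.0448). That call ended without any 1 array other than the 2 of IFNa alone (adjusted p = 0.0599 to 0.222), without the filter (0.0533), with quantile normalization (0.105) and with the replicate block (0.0599). On the other, with the x_at suffix, IFNg minus DMSO was 0.56 (adjusted p = 0.0250), a call that ended without any 1 DMSO or IFNg array (adjusted p = 0.113 to 0.142). There AMN107 minus DMSO was 0.30 (adjusted p = 0.105) and the interaction -0.55 (adjusted p = 0.226). The suffixes of both mark possible hybridization with related genes.

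Other microtubule genes were read as lists. In the background 20.7% of all probe sets were called higher and 12.4% lower with AMN107 against DMSO, and 6.65% and 2.33% with IFNg against DMSO; over all tested probe sets the medians were 0.03 and -0.02. Of 11 tested genes for gamma-, delta- and epsilon-tubulin and the gamma-tubulin ring complex, which nucleates microtubules, 3 were higher and 1 lower with AMN107 against DMSO (median 0.13). Tubg1, gamma-tubulin, was 0.63 higher with AMN107 (limma, adjusted p = 0.00112) and 0.44 higher with IFNg than with DMSO (adjusted p = 0.0186), and its IFNg response was lower with AMN107 by -0.65 (adjusted p = 0.0479). Tubgcp2 was 0.65 higher with AMN107 (adjusted p = 0.00131). Of 21 tested genes for tubulin folding, 4 were higher and 1 lower with AMN107 (median -0.01), and 3 were higher with IFNg (median 0.01), among them the chaperonin subunit Cct8 (0.53, adjusted p = 0.0188). The tubulin cofactor Tbce was 0.74 higher with AMN107 (adjusted p = 0.00244). The Cct8 call ended without any 1 DMSO or IFNg array (adjusted p = 0.0804 to 0.147). The Tubg1 call with IFNg ended without either DMSO array or the first IFNg array (0.10 to 0.147), and its interaction ended without any 1 array other than the 2 of IFNa alone (0.0859 to 0.221). Quantile normalization ended both (adjusted p = 0.0655 and 0.124), and leaving out the filter ended the interaction (0.0694).

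Of 16 microtubule-associated and plus-end proteins, 2 were higher and 3 lower with AMN107 than with DMSO (median -0.12). With IFNg 1 was lower, the plus-end protein Clip1 (-0.53, limma, adjusted p = 0.00925). The shares over all probe sets were 20.7% higher and 12.4% lower with AMN107, and 6.65% and 2.33% with IFNg. Of 10 tested destabilizers and severing enzymes, 3 were higher and 1 lower with AMN107 (median 0.04). Katna1 was the one gene of that list called higher with IFNg in both states, at adjusted p = 7.47e-05 against DMSO and 0.000539 against AMN107. Of 14 tubulin-modifying and autoregulation genes, 3 were higher with AMN107 (median 0.09). They were the acetyltransferase Atat1 (0.64, adjusted p = 0.00258), the deacetylase Sirt2 (0.82, adjusted p = 0.000154) and Ttc5, the factor that recognises nascent tubulin in mRNA autoregulation (0.36, adjusted p = 0.0497). The Ttc5 call ended without any 1 array other than the 2 of IFNa alone (adjusted p = 0.0603 to 0.280) and with quantile normalization (0.301), and the Clip1 call ended without either DMSO array or the first IFNg array (0.0679 to 0.0905). With AMN107-IFNg against AMN107, Katna1 was the single gene called among the 77 genes tested in these 6 lists, where 1.78% of all probe sets were called.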

How the data were processed

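RNA of 12 samples of mouse embryonic fibroblasts was hybridised to Affymetrix mouse arrays. The deposited values are linear signal intensities; the submitters' processing notes name MAS5 without a version or setting, and other steps are not given in the sources used here. The 2% trimmed mean of an array ran from 99.8 to 113.0, and no further scaling was applied. Probe sets were named through the platform annotation: of 45101 probe sets 64 were controls, 34945 had 1 gene, 932 several and 9160 none. Signals were taken as log2(signal + 8.66), the added value being the mean 25th percentile of the arrays. A probe set was tested if it lay above the array median on at least 2 arrays (24363). limma 3.58.1 in R 4.3.3 fitted 1 mean per group over the 12 arrays, with moderated variances and trend, and Benjamini-Hochberg adjustment over all 24363 probe sets at 0.05 for each of 9 comparisons. The code was checked on simulated data.

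The members and the gene lists were chosen with earlier results of these data known. Named were all members, the 8 genes most like Tubb3, its 3 neighbours on each side, and up to 4 genes per list with the lowest adjusted p in 4 comparisons, on the brightest probe set of a gene; Col3a1, S100a4, Ptprc and the other markers come from those lists. Tuba3b and Tuba3a were added after their values were seen. The 22 alternatives vary the added signal, the filter, the normalization, the arrays and groups used, array weights and a replicate block. The number of arrays, 2 a group, limits the precision.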

Additional observations from a re-analysis of the deposited data

Results flagged for a closer look

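For 3 probe sets of genes outside the 8 tubulins, the response to IFNg differed with AMN107 by the interaction term over all 12 arrays. As given above, all 3 calls ended when single arrays were left out. Those of Tubg1 and of Tuba3b and Tuba3a also ended without the filter and with quantile normalization. The interaction was not called on the dimmer Tubb4b probe sets (0.06 and 0.37) or on the other one of Tuba3b and Tuba3a (-0.55). For Tubb4b, AMN107-IFNg minus AMN107 was -0.12 and IFNg minus DMSO was 0.49, a difference of -0.62 ± 0.09 (log2, limma, adjusted p = 0.0127). For Tubg1 they were -0.21 and 0.44, a difference of -0.65 ± 0.13 (limma, adjusted p = 0.0479). Both AMN107-IFNg arrays lay below both AMN107 arrays for each of these genes. For the probe set shared by Tuba3b and Tuba3a, added after its values were seen, they were 0.09 and 0.98, a difference of -0.88 ± 0.18 (limma, adjusted p = 0.0448), and the AMN107-IFNg and AMN107 arrays overlapped.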

How the results depend on the processing

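Of 117 results for single tubulin probe sets, 76 kept their side of the threshold under the 22 alternatives, and 0 called results reversed. Differences that were not called were not held to a direction, and those near 0 could change sign. Among called results for list genes and for Tuba3b and Tuba3a, 18 of 50 kept their calls throughout, as did 5 of 36 list counts. Counts below are of the 12 tested probe sets of the other 7 tubulin genes. For IFNg against DMSO the 2 calls became 1 without a filter and 1 with a filter at the 75th percentile, and 0 to 3 with 1 array left out. For AMN107-IFNg against AMN107 the 0 calls became 1 with only the groups compared and 1 with array weights. For IFNa against DMSO the 0 calls became 0 to 5 with 1 array left out, the 5 without the first IFNa array. For AMN107 against DMSO the 5 became 8 without the IFNa arrays, 9 with only the groups compared, 8 with weights and 2 to 8 with 1 array left out. With IFNa the 3 became 0 with only the groups compared and 2 to 6 with 1 array left out. With IFNg the 3 became 5 with only the groups compared and 1 to 4 with 1 array left out. The IFNa interaction went from 0 to between 0 and 5 with 1 array left out. The IFNg interaction went from 0 to 3 without the IFNa arrays, with only its groups and with weights, and to 0 to 3 with 1 array left out. Where an arm keeps 1 array, it is assumed to vary like the other groups. The causes were not tested.

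Over all probe sets the calls ran from 630 to 7010 (2189 as reported) for IFNg against DMSO, 203 to 1600 (434) for AMN107-IFNg against AMN107, 37 to 13220 (2922) for IFNa against DMSO, 0 to 182 (29) for AMN107-IFNa against AMN107, 3483 to 13195 (8056) for AMN107 against DMSO, 58 to 11524 (5879) with IFNa, 1195 to 8415 (3741) with IFNg, 9 to 10674 (37) for the IFNa interaction and 29 to 3185 (335) for the IFNg interaction. Quantile normalization gave 1639 higher and 1424 lower for IFNg against DMSO (1621 and 568 as reported), 988 and 835 for IFNa against DMSO (2171 and 751), 3858 and 4523 for AMN107 against DMSO (5047 and 3009) and 2110 and 1484 for AMN107-IFNg against IFNg (2667 and 1074). Median centring gave 4913 and 475 for IFNa and 5859 and 2082 for AMN107 against DMSO. Quantile normalization moved the median of all probe sets by -0.10 for IFNa against DMSO and by 0.11 for the IFNa interaction, and no called tubulin difference changed sign.

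The replicate numbers did not pair the arrays: over 15 pairs of groups, the correlation of same-numbered deviations was -0.14 to 0.32, and 3 were above 0.1. With a replicate block the tubulin calls were 2 for IFNg and 5 for AMN107 against DMSO, 4 for AMN107 with IFNa and 3 with IFNg, and 15 of all probe sets for AMN107-IFNa against AMN107.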
